A study of Mus musculus with 8 samples.

Results

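The amino acid transporter genes of the families Slc1, Slc3, Slc6, Slc7, Slc15, Slc36, Slc38 and Slc43 were examined in mouse bone marrow-derived macrophages after siRNA transfection. The members were all genes whose name on the array begins with 1 of these family names followed by a member number, which gave 68 of 35080 gene names, measured by 88 probes. The name Slc7a6os fell under this rule although it belongs to a neighbouring gene on the strand opposite to Slc7a6 and encodes no transporter. It is counted among the 68 but is left out of the descriptions of transporters. The macrophages were grown from bone marrow of male C57BL/6J mice (age not given in the sources used here). Cells of 4 mice received either a control siRNA or siRNA directed against the terminal loop of RNY, the Y RNAs that associate with the protein Ro60, and each group held 4 arrays. The labels name the latter both as 1 siRNA and in the plural, and it is called the Y RNA siRNA here. All samples were transfected cultures, and no untransfected culture was analysed here. The sources used here do not give the dose, the sequence or the duration of the siRNA treatment.

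Cells import, export and store amino acids through transporters that differ in what they carry and in what drives them. Slc3 genes encode glycoprotein heavy chains that bring light chains of the Slc7 family to the cell surface, whereas other Slc7 proteins carry cationic amino acids on their own. Slc1, Slc6 and Slc38 transporters mostly use the sodium gradient, and most Slc36 and Slc15 transporters use protons. Several members of the Slc38, Slc36 and Slc15 families act on lysosomes. In macrophages, arginine supply feeds nitric oxide and polyamine synthesis, cystine supply feeds glutathione, and lysosomal transporters return amino acids and peptides from digested material to the cytosol.

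Signals are given as log2 of the background-subtracted intensity minus the 75th percentile of the array, so that 0 is the level below which 75% of the spots of an array lie. A probe counted as expressed when the scanner software marked it as well above background on 4 or more arrays out of 8. Differences are on the log2 scale, Y RNA siRNA cultures minus control cultures, with the standard error (SE) of limma's moderated fit, and adjusted p-values are Benjamini-Hochberg values over all 19284 genes tested. The replicate number of a sample is used as its mouse. The samples of a group came from separate mice, so the siRNA fit without the mouse sets a difference against the spread among these 4 cultures. That spread includes differences among mice, and the fit does not use that both groups came from the same mice. With the mouse as a fixed term, and in the F test among mice, the error is the spread left between the cultures of the same mouse.

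Between 48.7% and 50.7% of the spots were well above background, none of the spots was saturated, and the arrays correlated with one another at 0.989 to 0.997 across genes, which are not independent replicates. Both arrays of mouse 1 were the dimmest, with a 75th percentile of 9.04 on the log2 scale against 9.19 to 9.34 for the other 6. RNA integrity numbers were 10, apart from 8 for control replicate 4. All 10 macrophage markers examined, among them Csf1r, Adgre1 and Cd68, were well above background, with a summed linear signal (in units of the array's 75th percentile) of 1403 to 1640 in controls and 1382 to 1638 with the Y RNA siRNA. No probe is named for a Y RNA, so the knockdown itself was not checked.

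Of the 68 members 37 were expressed and could be tested, which is 54.4% and near the 55% of all gene names, and 30 of them were well above background on all 8 arrays. Another 8 members were well above background on 1 to 3 arrays and 23 on 0. The smallest share was that of the Slc6 family, where 7 of 20 genes were expressed, and the others were 3 of 7 for Slc1, 1 of 2 for Slc3, 10 of 16 for Slc7 (Slc7a6os included), 3 of 5 for Slc15, 3 of 4 for Slc36, 8 of 11 for Slc38 and 2 of 3 for Slc43. At the edge of the filter, Slc1a7 and Slc38a11 passed with 4 arrays each, while Slc7a13 and Slc6a17, with 2 arrays each, were among those that did not.

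The genes not expressed by this measure came from all 8 families. In the Slc6 family they included the monoamine transporter genes Slc6a2, Slc6a3 and Slc6a4, the GABA transporter gene Slc6a11, the glycine transporter gene Slc6a5, the proline transporter gene Slc6a7, and Slc6a14, Slc6a15, Slc6a17, Slc6a18, Slc6a19 and Slc6a20b. In the Slc1 family they were the glutamate transporter genes Slc1a1, Slc1a2, Slc1a3 and Slc1a6. Slc3a1 and Slc7a9, the heavy and light chain of the kidney cystine carrier, were both well above background on 0 arrays. The others were Slc7a10, Slc7a12, Slc7a13, Slc7a14, Slc7a15, Slc15a1, Slc15a5, Slc36a3, Slc38a4, Slc38a5, Slc38a8 and Slc43a1.

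The strongest probe signals came from the taurine transporter gene Slc6a6, the heavy chain gene Slc3a2 (CD98), the lysosomal peptide and histidine transporter gene Slc15a4 and the creatine transporter gene Slc6a8. Probes differ in how strongly they bind their target, so the order is one of probe signals and not of transcript numbers. Slc6a6 (probe on chromosome 6, 91708620 to 91708679, mm9) had 6.25, 6.20, 6.19 and 6.32 in the control cultures of mice 1 to 4 and 6.24, 6.34, 6.11 and 6.37 with the Y RNA siRNA, which places it at percentile 94.8 of all genes tested. Slc3a2 (chromosome 19, 8782189 to 8782248) had 5.70, 5.89, 5.79 and 5.83 in controls and 5.83, 5.89, 5.81 and 5.75 with the Y RNA siRNA. The groups overlapped for both genes, and no array stood apart.

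Of the light chains that pair with Slc3a2, Slc7a7 and Slc7a8 gave strong to intermediate signals and Slc7a6, Slc7a5 and Slc7a11 weak ones. Slc7a7, which exports arginine and lysine in exchange for neutral amino acids and is mutated in lysinuric protein intolerance, had a control mean of 4.57 ± 0.12 (SD, n = 4). Slc7a8, a carrier of neutral amino acids, had 2.25 ± 0.26 (SD, n = 4). The means of Slc7a6, the close relative of Slc7a7, and of Slc7a5, the large neutral amino acid transporter LAT1, were -2.54 ± 0.17 and -2.91 ± 0.64 (SD, n = 4). Slc7a11, the cystine and glutamate exchanger xCT, had -4.37 ± 0.59 (SD, n = 4) and was well above background on 3 of 4 arrays in each group.

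Slc7a11 is a textbook target of the stress factor ATF4, which binds amino acid response elements, so the members' promoters were searched for the letters TGATGNAA on either strand in the 250 bases before each start in RefSeq's promoter table (GRCm38.p6). Of the 49 members with an entry there, 2 held a match, Slc7a11 and Slc7a7, and both were expressed. Of all 27025 genes with an entry, 3.91% held one, so the share among the members is near that of other genes. The stretches with the matches are shown because they carry these letters in the only members that do, with the matches in capitals. The Slc7a11 stretch is chr3:50443614-50443713, minus strand, bases -100 to -1 from the start, and holds a match on each strand, at -66 to -59 and at -47 to -40. The Slc7a7 stretch is chr14:54418055-54418114, minus strand, bases -170 to -111 from its most upstream start, with a match at -141 to -134. Another Slc7a7 start had a match at -243 to -236.
Slc7a11: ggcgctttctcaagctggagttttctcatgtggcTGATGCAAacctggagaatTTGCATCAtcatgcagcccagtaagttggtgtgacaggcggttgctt
Slc7a7: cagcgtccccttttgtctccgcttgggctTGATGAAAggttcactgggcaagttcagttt

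A match to these letters is a description of the window and not a measured binding site. The letters TGACNNNGC, the core of the antioxidant response element bound by NRF2, were found for 8 of the 49 members, against 11.5% of all genes. Of the expressed members these were Slc6a9, Slc7a1, Slc6a13, Slc6a16, Slc7a6 and Slc38a2. The window of Slc7a11 held no match to TGACNNNGC.

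Among the transporters of cationic amino acids, the arginine carrier gene Slc7a1 (CAT1) had a control mean of 1.32 ± 0.59 and Slc7a2 (CAT2), known from activated macrophages, one of -3.18 ± 0.55 (SD, n = 4). Slc7a3 (CAT3) was near background at -3.63 ± 0.27, and Slc7a4, a relative without a known substrate, had 1.32 ± 0.07 (SD, n = 4). Slc7a1 and Slc7a2 spread widely among cultures, as described below for the mice. In the Slc1 family, the glutamine carrier gene Slc1a5 (ASCT2) had 1.95 ± 0.23 and its relative Slc1a4 (ASCT1) 1.60 ± 0.29 in controls (SD, n = 4).

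Most expressed Slc38 members encode sodium-coupled carriers of glutamine and other neutral amino acids. The surface carriers Slc38a1 and Slc38a2 had control means of 4.10 ± 0.05 and 4.14 ± 0.13 (SD, n = 4), and the system N carrier Slc38a3 was near background at -3.90 ± 0.19. Slc38a7, which exports glutamine from lysosomes, had 2.26 ± 0.10, and Slc38a9, the arginine sensor that tells mTORC1 of lysosomal amino acids, had 2.00 ± 0.09 (SD, n = 4). Slc38a6 had 2.06 ± 0.14 and Slc38a10 -0.01 ± 0.03.

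Of the expressed Slc6 genes other than Slc6a6 and Slc6a8, the betaine and GABA transporter gene Slc6a12 had a control mean of 0.74 ± 0.20 and the GABA transporter gene Slc6a13 one of -0.03 ± 0.19 (SD, n = 4). The glycine transporter gene Slc6a9 and the imino acid transporter gene Slc6a20a had -2.90 ± 0.63 and -2.94 ± 0.07, and Slc6a16, without a known substrate, was near background at -4.07 ± 0.38 (SD, n = 4).

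Genes of the other lysosomal transporters were expressed as well. Slc15a4 and Slc15a3, which carry histidine and bacterial peptides out of endolysosomes, had control means of 5.66 ± 0.18 and 3.64 ± 0.18 (SD, n = 4). Slc36a4 and Slc36a1, amino acid carriers that also take part in mTORC1 signalling, had 0.35 ± 0.03 and -0.49 ± 0.19. The surface peptide transporter gene Slc15a2 had -2.03 ± 0.63, with the widest spread among the Slc15 genes. Slc43a2, a carrier of branched-chain and aromatic amino acids, had 3.98 ± 0.22 and Slc43a3, a nucleobase transporter, 0.97 ± 0.37 (SD, n = 4).

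**Figure D1:**
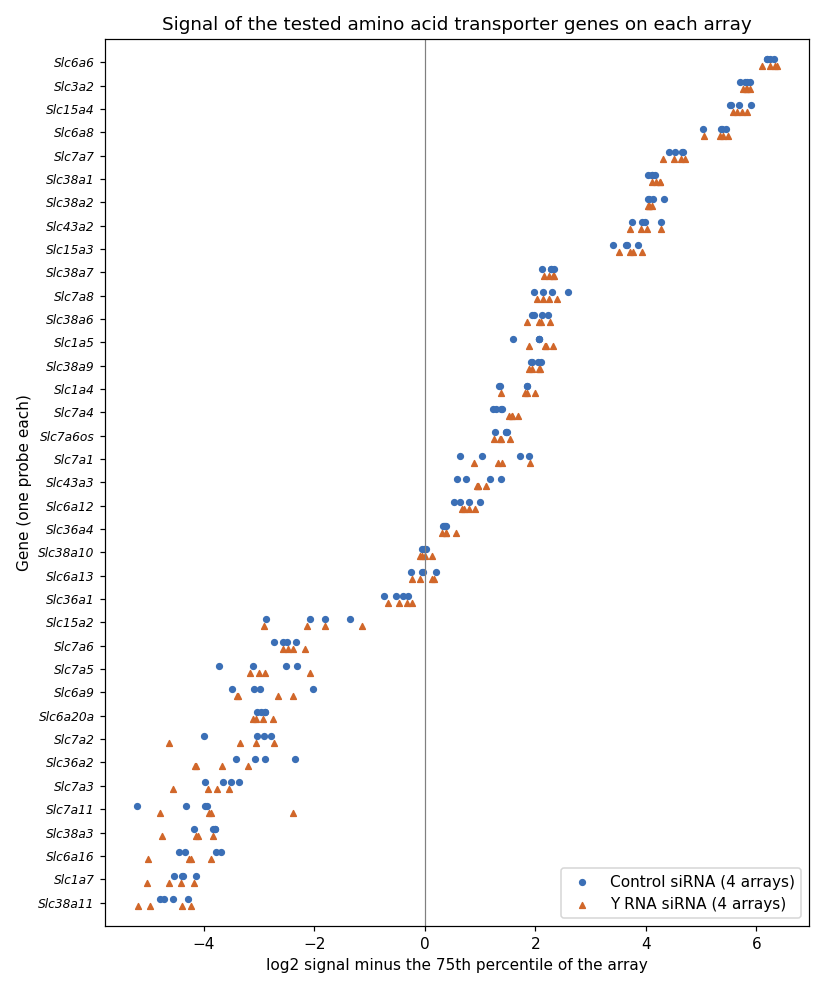
Each point is the log2 signal of a gene on an array minus the 75th percentile of that array, for the 37 tested members including Slc7a6os, with control siRNA arrays as circles and Y RNA siRNA arrays as triangles. Signals run from about 6 for Slc6a6 to below -4 for Slc38a11, and the 2 groups overlap for all genes except Slc7a4.

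The comparison of the siRNAs asked which genes respond when the terminal loop of the Y RNAs is targeted, and for the amino acid transporters it showed small differences. In limma 0 of the 37 members had an adjusted p under 0.05, as for 0% of all genes, and 2 members, Slc7a4 and Slc36a2, had an unadjusted p under 0.05, which is 5.41% against 3.4% of all genes. The median difference was 0.01 over the members and 0.00 over all genes, and the median size of the difference was 0.06 in both. With the Y RNA siRNA 23 members were higher and 14 lower, which is 62.2% higher against 52.3% of all genes. A fixed term for the mouse gave 0 calls among the members. It left 4 with an unadjusted p under 0.05, which is 10.8% against 9.27% of all genes. Of these Slc7a4, Slc1a5 and Slc38a1 were higher (4.7% of all genes) and Slc36a2 was lower (4.57%). With the mouse as a random term 0 members passed, against 0.057% of all genes. On the slide the Y RNA siRNA took columns 1 and 3 and the control siRNA took columns 2 and 4, and the effects of position and siRNA cannot be told apart. Of the 6 osteoclast markers tested 5 were lower with the Y RNA siRNA, with a median difference of -0.25 and 0 adjusted calls. With the mouse as a fixed term in limma 4 of these markers had an unadjusted p under 0.05, against 9.27% of all genes, again with 0 adjusted calls. Their part in the transporter differences was not tested.

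Slc7a4 (probe on chromosome 16, 17573049 to 17573108) was the only member whose groups did not overlap. Its signal was 1.29, 1.39, 1.37 and 1.23 in the control cultures of mice 1 to 4 and 1.52, 1.58, 1.68 and 1.57 with the Y RNA siRNA. Every array of the Y RNA siRNA thus lay above every control array, a pattern held by 1.35% of all genes, against 2.7% of the members. No member had the reverse pattern, held by 1.09% of all genes, and 2.44% had either. The difference was 0.27 ± 0.06 (SE), a 1.2-fold higher signal seen in 4 of 4 mice, and the adjusted p in limma was 0.853. It was 0.284 with the fixed term and 0.0858 with the random term for the mouse, and it ranged from 0.0858 to 1 over the alternatives. A further probe for Slc7a4 was well above background on 0 arrays, so the difference rests on 1 probe.

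Slc36a2 encodes a proton-coupled carrier of glycine and proline and had the largest difference of all members. Its probe (chromosome 11, 54972134 to 54972193) gave -2.36, -3.08, -2.89 and -3.42 in controls and -3.20, -3.68, -4.14 and -4.16 with the Y RNA siRNA. The signal was lower with the Y RNA siRNA in 4 of 4 mice, although control replicate 4 lay below replicate 1 of the Y RNA siRNA. The difference was -0.86 ± 0.28 (SE), with a 95% interval from -1.50 to -0.22 and an adjusted p of 1.00 in limma, 0.249 with the mouse as a fixed term and 0.161 as a random one, within a range of 0.161 to 1 over the alternatives. The probe is dim, and with normexp background correction the difference was -0.39. The deposited value table gave the same size to 2 decimals.

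Slc1a5 was higher with the Y RNA siRNA in 4 of 4 mice and in both of its probes, but by less than its error allowed a call. The brighter probe gave 1.60, 2.07, 2.07 and 2.07 in controls and 1.88, 2.18, 2.33 and 2.19 with the Y RNA siRNA. Control replicate 1 lay below the other controls, and the groups overlapped. The difference was 0.19 ± 0.14 (SE) for this probe and 0.15 for the dimmer one. Slc38a1 went from 4.10 ± 0.05 to 4.20 ± 0.07 (SD, n = 4), a difference of 0.10 ± 0.06 (SE) in 4 of 4 mice, and its 3 probes gave 0.10, 0.07 and 0.10. Slc1a5, Slc38a1, Slc7a4, Slc1a4, Slc7a6, Slc15a3, Slc36a1 and Slc7a11 were the 8 members higher in 4 of 4 mice, which is 21.6% against 10.4% of all genes, and Slc36a2 was the only member lower in 4 of 4, which is 2.7% against 8.85%.

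Slc7a11 had the largest positive difference and the largest error. Its probe (chromosome 3, 50169700 to 50169759) gave -3.95, -3.98, -5.21 and -4.33 in controls and -3.91, -3.88, -4.79 and -2.38 with the Y RNA siRNA. The last value, from mouse 4, lay far above the other 7, which overlapped between the groups. The difference was 0.63 ± 0.50 (SE) with all arrays and 0.17 without the Y RNA siRNA culture of mouse 4. Without control replicate 3 it was 0.35, without the Y RNA siRNA culture of mouse 3 it was 0.98, and without both arrays of mouse 4 it was 0.18. It was 0.28 with normexp and 0.33 from the deposited values.

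The well measured members bounded how large a difference could have been missed in the fit without the mouse. The width of these intervals includes the spread among mice. The 95% interval lay within a 2-fold change for 33 of the 37 members, against 95.6% of all genes, and within a 1.5-fold change for 25 of them, against 84.7%. For Slc3a2 the difference was 0.02 ± 0.06 (SE) with an interval from -0.12 to 0.15, for Slc6a6 0.02 ± 0.07 with -0.14 to 0.18, and for Slc38a9 0.00 ± 0.07 with -0.16 to 0.17. Slc38a2, which rises in amino acid starvation, was at -0.07 ± 0.07 with -0.24 to 0.09. The 4 members whose interval reached beyond 2-fold were Slc7a11, Slc36a2, Slc7a2 and Slc15a2, all of them dim. With the mouse as a fixed term the SE fell from 0.43 to 0.06 for Slc15a2 and from 0.44 to 0.12 for Slc7a2. It fell from 0.28 to 0.12 for Slc36a2 and from 0.50 to 0.36 for Slc7a11. For Slc15a2 and Slc7a2 the wide intervals thus hold differences among mice, with adjusted p-values of 0.00914 and 0.0384 in the F test. For Slc36a2 and Slc7a11 the adjusted p of that test was 0.0829 and 0.234. The Slc7a11 difference was 1.95 in mouse 4 and 0.03 to 0.41 in the others, and its SE with the fixed term stayed large. The intervals of the fit without the mouse are not bounds for the paired comparison. The other named members were Slc15a4 at 0.04, Slc7a6 at 0.14, Slc15a3 at 0.09, Slc7a8 at -0.05, Slc43a2 at -0.01, Slc43a3 at 0.02, Slc6a8 at 0.01, Slc7a1 at 0.06, Slc36a4 at 0.06 and Slc7a3 at -0.32, none of them past the threshold. Of the near-background members, Slc38a3 was at -0.31 ± 0.19 (SE) and passed the background mark on 4 of 4 control arrays and on 1 of 4 arrays of the Y RNA siRNA. The control arrays alone met the filter for Slc38a3, so these counts lend its difference no separate weight.

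**Figure D2:**
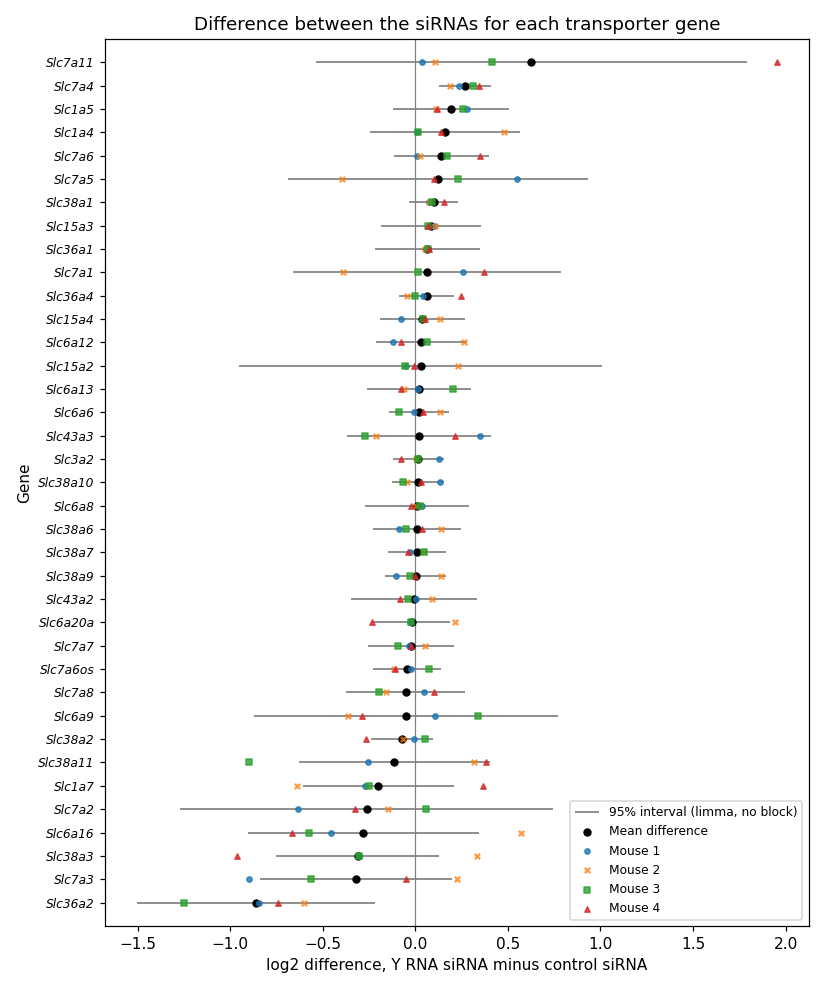
The log2 difference of the Y RNA siRNA minus the control is plotted for the 37 tested members, with the mean as a black point, limma's 95% interval as a line and the 4 mice as coloured symbols. Slc7a4 and Slc36a2 are the members whose interval excludes 0 before adjustment, and the mouse 4 point of Slc7a11 lies near 2, apart from its other mice.

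Genes with several probes showed how far a single probe can be read. Of the 68 members 16 had several probes, 8 had several that passed the filter, and in 5 of these (Slc36a1, Slc36a4, Slc38a9, Slc6a9 and Slc7a5) the probes disagreed in the sign of the difference. Slc36a1 gave the widest gap, with 0.07 for its brighter probe and -0.41 for its dimmer one, and -0.17 as the mean of both. The dimmer Slc36a1 probe read -2.90, -3.44, -3.14 and -4.19 in controls and -3.20, -4.09, -4.08 and -3.94 with the Y RNA siRNA, so its groups overlapped too. The Slc6a9 probes gave -0.05 and 0.07 and the Slc7a5 probes 0.12 and -0.02. The brighter one ranged from -3.73 to -2.08 over the 8 arrays and the other, at almost the same mean signal, from -3.22 to -2.63.

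**Figure D3:**
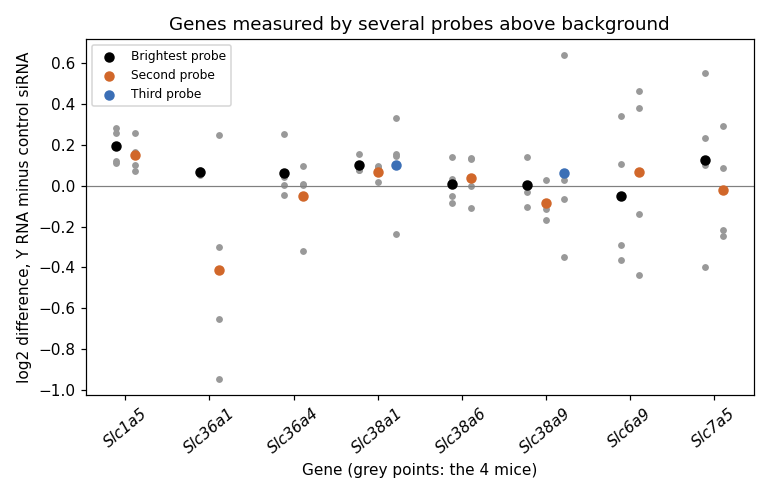
The log2 difference of the Y RNA siRNA minus the control is shown for each probe above background in the 8 genes with several such probes, with the mean as a coloured point and the 4 mice in grey. The probes of Slc1a5, Slc38a1 and Slc38a6 lie on the same side of 0, and those of Slc36a1 lie furthest apart.

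The cultures of the 4 mice differed in several transporters. In limma's F test of the mouse terms, with the siRNA in the model, 6 of the 37 members differed among mice at an adjusted p under 0.05, which is 16.2% against 4.7% of all genes. They were Slc15a2, Slc7a2, Slc36a1, Slc6a8 and Slc15a3, all lowest in mouse 1, and Slc43a2, which was highest in mouse 1. Those lowest in mouse 1 make 13.5% of the members against 2.18% of all genes, and the highest 2.7% against 2.14%. Across the tested members, mouse 1 had the lowest mean signal for 22 of 37, or 59.5%, against 33% of all genes. The range of the mouse means had a median of 0.42 over the members and of 0.25 over all genes. The median SD among the 4 arrays of a group was also larger for the members, at 0.18 in controls against 0.14 over all genes.

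Slc15a2, the surface peptide transporter (probe on chromosome 16, 36750603 to 36750662), gave the clearest case. It had -2.87 and -2.92 in the control and Y RNA siRNA cultures of mouse 1, -1.36 and -1.13 in mouse 2, -2.08 and -2.14 in mouse 3, and -1.81 and -1.82 in mouse 4. Both cultures of a mouse lay within 0.23 of each other on the log2 scale, while the mouse means spanned 1.65 on that scale, or 3.14-fold. The adjusted p among mice was 0.00914, and it ranged from 0.00583 to 0.233 over the alternatives.

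Slc7a2, which supplies arginine, was lowest in mouse 1 with -4.0 and -4.64, against -3.36 to -2.73 in the other 6 cultures. Its adjusted p was 0.0384, with a range of 0.0155 to 0.352 over the alternatives. The Slc7a2 probe is dim and was well above background on 4 control arrays and on 3 with the Y RNA siRNA. Slc7a1 showed the same low values in mouse 1, 0.64 and 0.90, with 1.03 to 1.91 in the others, but its adjusted p was 0.0922 (range 0.0209 to 0.371).

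Slc6a8, for creatine, had 5.03 and 5.06 in mouse 1 and 5.34 to 5.48 in the other mice, with an adjusted p of 0.0455 (range 0.0111 to 0.507). Slc15a3 had 3.41 and 3.51 in mouse 1 and 3.64 to 3.93 in the others, with an adjusted p of 0.0464 (range 0.0159 to 0.346). Slc36a1 had -0.74 and -0.67 in mouse 1 and -0.52 to -0.24 in the others on its brighter probe, with an adjusted p of 0.0402 (range 0.0173 to 0.373), and the call was lost at 0.373 with the mean of its probes. Slc43a2 went the other way, with 4.28 and 4.28 in mouse 1 and 3.71 to 4.01 in the others, with an adjusted p of 0.0473 (range 0.0244 to 0.354). For these 4 genes both cultures of mouse 1 lay outside the range of the other 6.

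The calls among mice depended on which mice were in the fit. Without mouse 1, 0 of the 37 members passed in limma's F test, and 2 genes passed in all. Without mouse 3 or without mouse 4, 1 member passed, Slc15a2, and without mouse 2, 7 did. These 7 were Slc15a2, Slc36a1 and Slc43a2 again, and Slc1a4, Slc7a1, Slc7a5 and Slc6a16. Slc7a2, Slc6a8 and Slc15a3 did not pass without mouse 2, at adjusted p-values of 0.0506, 0.0542 and 0.0516 in the F test. Over all genes, the fits with a mouse left out gave 2 to 1224 calls. With no filter on dim probes 0 of 68 passed in limma, against 173 of all 35080 gene names. At an unadjusted p under 0.05 in that fit were 18 of the 68, against 5963 of the 35080. With median centring 2 of 37 members passed (Slc15a2 and Slc7a2). The arrays of mouse 1 were also the dimmest, as given above, and the part of this in the calls was not tested. Mice 1 and 2 lay in the first row of the slide and mice 3 and 4 in the second, so a difference among mice includes any difference in culture, handling and position, and these cannot be told apart.

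Markers of osteoclasts, which form from the same precursors, also differed among mice. Of the 7 listed, 6 were tested and 4 passed among mice (Acp5, Ctsk, Atp6v0d2 and Mmp9), while Calcr was not expressed. Their summed linear signal was 20.4 and 17.9 in the control and Y RNA siRNA cultures of mouse 1 and 64.9 to 104.5 in the other 6. Markers of other lists passed too, Lyz2 and Cd14 (macrophages, both highest in mouse 1), S100a8 and Mpo (neutrophils), Col1a1 (fibroblasts) and Kit (mast cells). The macrophage sum was highest in mouse 1, at 1640 and 1638 against 1382 to 1561 in the others.

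Several of the other sums were lowest in mouse 1. The fibroblast sum (5 of 7 tested) was 0.81 and 1.09 there and 1.85 to 2.97 in the others, and the neutrophil sum (5 of 8) was 4.09 and 4.5 against 5.28 to 6.24. The only tested marker of 7 for erythroid cells and megakaryocytes, Pf4, read 51.4 and 60.3 in mouse 1 against 81.2 to 103.0. The lymphocyte sum (4 of 9 tested) was 10.5 and 9.47 in mouse 1 and 7.36 to 9.46 in the others. The sums overlapped between mouse 1 and the others for mast cell and basophil markers (2 of 6, 0.67 to 1.28) and for dendritic markers (2 of 6, mostly Siglech, 82.7 to 96.5). Well above background on all 8 arrays were Cd3e, Cd4, Cd79a and Nkg7 of the lymphocyte list, S100a8, S100a9, Elane and Camp of the neutrophil list, Col1a1, Col1a2 and Dcn of the fibroblast list, and Kit and Tpsb2 of the mast cell list. Of the same lists Cd3g, Cd8a, Ms4a1, Ly6g, Pdgfra and Fcer1a, and of the dendritic list Flt3 and Xcr1, were not expressed. In these bulk samples fewer cells of a type and less RNA per cell cannot be told apart, and the part of these markers in the transporter differences was not tested.

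**Figure D4:**
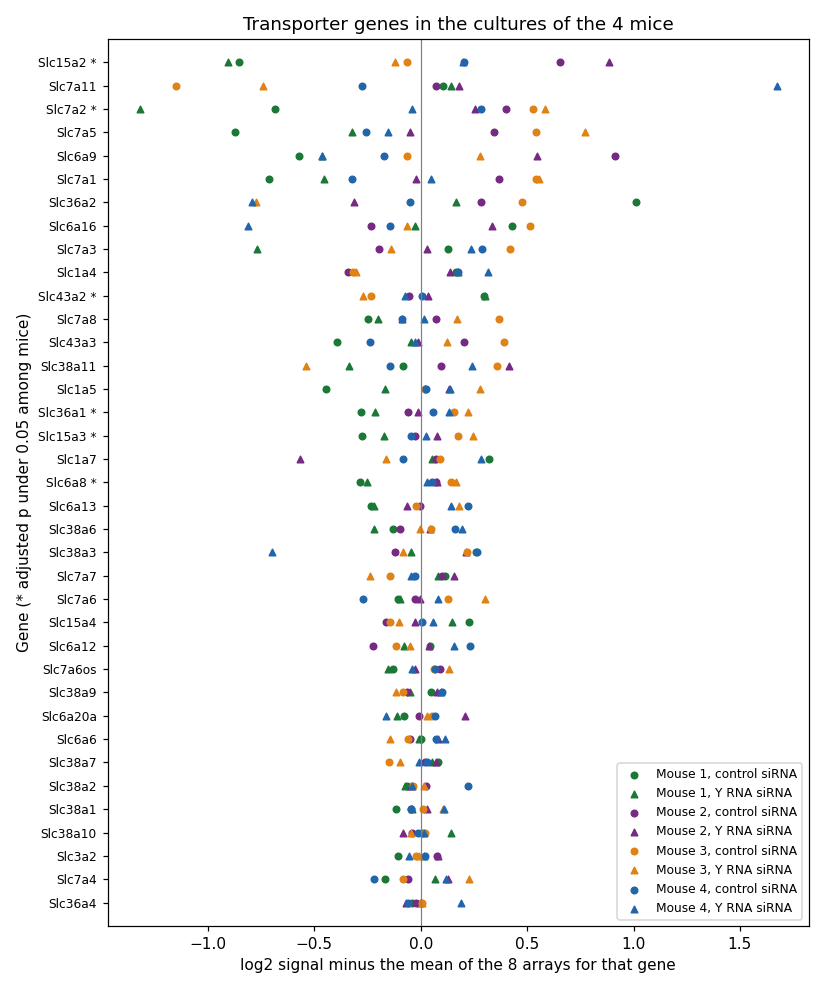
Each point is the log2 signal on an array minus the mean of the 8 arrays for that gene, coloured by mouse, with control siRNA as circles and Y RNA siRNA as triangles, and an asterisk marks an adjusted p under 0.05 among mice. Genes are ordered by the range of the mouse means, and both green points of mouse 1 lie at the low end for Slc15a2, Slc7a2, Slc36a1, Slc15a3 and Slc6a8 and at the high end for Slc43a2.

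Other genes of amino acid handling also gave 0 calls between the siRNAs in limma, in each of 5 lists. For comparison with each list, 52.3% of all genes were higher with the Y RNA siRNA. An unadjusted p under 0.05 in limma was reached by 3.4% of all genes without the mouse and by 9.27% with it as a fixed term. Of the other amino acid carriers 15 of 20 were tested, 8 higher and 7 lower with a median of 0.01, and 2 had an unadjusted p under 0.05. With the mouse as a fixed term 2 did as well, Slc17a8 and Slc25a29. Those without it were the vesicular glutamate transporter gene Slc17a8, at -0.66 ± 0.23 (SE), and the mitochondrial aspartate and glutamate carrier gene Slc25a12, at 0.12 ± 0.05, beside the lysosomal cysteine transporter gene Mfsd12 at -0.20 ± 0.09. Of the genes of amino acid sensing by mTORC1 38 of 39 were tested, 21 higher and 17 lower, with a median of 0.00. Bmt2, the sensor of S-adenosylmethionine also called Samtor, was at -0.37 ± 0.08 (SE) and lower in 4 of 4 mice, with an unadjusted p of 0.0012 and an adjusted p of 0.771 in limma. With the mouse term Bmt2, Sesn3 and Tfeb had an unadjusted p under 0.05. Sesn3, a sestrin, was at 0.34 ± 0.17 and the lysosome factor gene Tfeb at -0.14 ± 0.08.

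The ATF4 amino acid response had 25 of 29 genes tested, 17 higher and 8 lower with a median of 0.04. In limma without the mouse 0 had an unadjusted p under 0.05, against 3.4% of all genes. With the mouse as a fixed term 3 did (Ddit3, Atf3 and Phgdh), against 9.27% of all genes. Both fits gave 0 adjusted calls in this list. Ddit3, the stress factor CHOP, was at 0.18 ± 0.08 (SE), Nars, an aminoacyl-tRNA synthetase gene, at -0.08 ± 0.05 and Atf3 at -0.21 ± 0.14. Of the glutathione and NRF2 genes 14 of 15 were tested, 3 higher and 11 lower with a median of -0.06, and Hmox1, at -0.13 ± 0.07, Gss, at -0.09 ± 0.05, and Keap1, at -0.10 ± 0.06, had the smallest p-values without the mouse term. With it 2 genes had an unadjusted p under 0.05, Gclm, a subunit of the first enzyme of glutathione synthesis, at -0.16 ± 0.17 in the fit without the mouse (lower in 4 of 4 mice), and Hmox1. Of the amino acid enzymes 21 of 26 were tested, 10 higher and 11 lower with a median of -0.01, and Il4i1 alone had an unadjusted p under 0.05 with the mouse term. Got1 was at 0.09 ± 0.05, the urea cycle gene Asl at -0.08 ± 0.04 and the amino acid oxidase gene Il4i1 at -0.18 ± 0.12 (SE).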

How the data were processed

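The scanner output deposited by the authors gives an intensity for each spot of 1 array per sample. It was made with Agilent Feature Extraction 10.7.3.1 on probes placed on mm9, per the file headers. The processed signal is background-subtracted and detrended within the array, with no normalization between arrays. The deposited value table holds log2 values that follow the raw median signal of each array (correlation at least 0.9998). How it was normalized and centred is not stated, and it served as an alternative.

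Control spots (3671 of 62976) and spots marked as outliers were left out, and spots of a probe were averaged. The 75th percentile was subtracted on the log2 scale, and 26818 of 55681 probes passed the filter. Names were updated through RefSeq accessions (GRCm38.p6) where they matched, for 83 of the 88 member probes. A gene was represented by its brightest probe. The siRNA difference was tested two-sided with lmFit and eBayes of limma 3.58.1 (R 4.3.3), without a block, and mice by an F test, and the fits were tested on simulated data. The series design gives 2 conditions on 4 mice. On this ground the number of an array was read as its mouse, which the sample labels do not state. Deviations from the group means correlated between same-numbered arrays at 0.618, 0.155, 0.580 and 0.286 across genes. These values cannot decide the pairing, because no such correlation was computed for differently numbered arrays. Same-numbered arrays also lay side by side on the slide, so a shared mouse and a shared position cannot be told apart. The array number limits the precision. Members and gene lists were chosen with earlier results of these data known. The text names the 12 members with the highest signal, the 8 with the smallest p for each comparison, 23 of known role, those whose probes disagree, and 3 genes per related list. A few genes are not reported here by name.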

Additional observations from a re-analysis of the deposited data

Results flagged for a closer look

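In 88 groups of 4 arrays examined for 44 named genes, 2 held an array far from the other 3, against about 1 in 20 by chance. Slc1a5 read 1.602 in control replicate 1, with the other controls at 2.067 to 2.07. Slc38a3 read -4.177 in control replicate 2, with the other controls at -3.838 to -3.793.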

How the results depend on the processing

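In the siRNA comparison 0 members passed in limma under every alternative run, 1 to 4 of them with an unadjusted p under 0.05. Over all genes 11 passed with the replicate block as a random term and 1 with array weights, and with the mouse as a fixed replicate block 0 passed, with 1788 at an unadjusted p under 0.05. The blocks changed no call of a member. The members' median difference was 0.0428 with median centring and -0.0332 to 0.0374 when 1 array or mouse was left out. Among mice, genes and members called were 3316 and 12 with normexp, 1822 and 10 with the deposited table and 173 and 0 with no filter. With array weights 1638 genes passed. Members called were 2 with median centring and 3 with the mean of kept probes. Leaving out a mouse gave 2 to 1224 genes and 0 to 7 members. The cause of these shifts was not tested.

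Of 44 named genes 26 kept their sign throughout, and none of their 1008 values passed the threshold. The sign turned with array weights for Slc3a2 (-0.0221), Slc43a2 (0.0374), Slc43a3 (-0.144), Slc6a8 (-0.0184), Slc7a1 (-0.189) and Slc7a5 (-0.227). It turned with median centring for Slc43a2 (0.0231) and Slc7a7 (0.00608), and with quantile values for Slc38a9 (-0.00344). With normexp it turned for Slc38a6 (-0.00635), Slc38a7 (-0.00651), Slc38a9 (-0.00459) and Slc6a8 (-0.00141). The deposited table turned Slc38a6 (-0.0148), Slc38a7 (-0.0227), Slc38a9 (-0.00168) and Slc43a3 (-0.00453). The mean of kept probes turned Slc36a1 (-0.174), Slc38a9 (-0.0067) and Slc6a9 (0.00723). With 1 array or mouse left out the differences ranged from -0.261 to 0.336 for Slc15a2, -0.0108 to 0.119 for Slc15a4, -0.0178 to 0.148 for Slc36a1, -0.00172 to 0.0969 for Slc36a4, -0.0547 to 0.0831 for Slc38a6, -0.0403 to 0.0418 for Slc38a7, -0.0456 to 0.0395 for Slc38a9, -0.0191 to 0.0486 for Slc3a2, -0.108 to 0.091 for Slc43a2 and -0.109 to 0.153 for Slc43a3. They were -0.018 to 0.0724 for Slc6a6, -0.0834 to 0.095 for Slc6a8, -0.252 to 0.243 for Slc6a9, -0.164 to 0.254 for Slc7a1, -0.534 to 0.135 for Slc7a2, -0.149 to 0.323 for Slc7a5, -0.0797 to 0.0515 for Slc7a7 and -0.143 to 0.062 for Slc7a8. Probes near background limit what can be measured for the dim members.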
